A study of Mus musculus with 4 samples.

Results

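The genes described here are Cxcl9, Cxcl10 and Cxcl11, which encode the chemokines that bind the receptor CXCR3. They were chosen by their gene symbols alone, and all 3 were found among the 23284 genes of the deposited tables. Messenger RNA was measured in mouse stromal cells that were sorted from complete large intestines, in 4 groups of 1 library each. The sort kept living (7AAD-) cells with podoplanin on their surface and removed leukocytes (CD45), endothelium (CD31) and epithelium (EpCAM). BALB/c wild type mice were set against BALB/c mice without Rag2, a gene needed to assemble the antigen receptors of T and B cells, and C57BL/6J wild type mice against C57BL/6J mice without IL-10, a cytokine that restrains inflammation. The wild type libraries are called the BALB/c control and the C57BL/6J control below. The labels give no age, no treatment, no allele and no number of animals per library, and C57BL/6J is the strain of the reference genome.

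CXCL9, CXCL10 and CXCL11 are small secreted proteins that guide CXCR3-bearing cells, mainly effector T cells and natural killer cells, towards inflamed tissue. Interferon-gamma is the classical inducer of their genes. Cxcl9 depends on it most strictly, whereas Cxcl10 also answers to type I interferon and, with NF-kappaB, to TNF. Macrophages, dendritic cells, endothelium and epithelium can make these chemokines as well as fibroblasts. In C57BL/6 mice the Cxcl11 gene carries a frameshift, so that its RNA does not encode a working chemokine, and BALB/c mice have an intact gene.

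The chemokine genes lie next to each other on the minus strand of chromosome 5 (GRCm38, the genome sequence of mm10). In the RefSeq annotation Cxcl9 spans chr5:92321331-92328079, Cxcl10 spans chr5:92346638-92348889 and Cxcl11 spans chr5:92359544-92363296. Their RefSeq transcripts have 4, 4 and 5 exons and lengths of 2889, 1094 and 1581 nt. RefSeq classes Cxcl11 on this C57BL/6J assembly as a transcribed pseudogene, and GENCODE as a polymorphic pseudogene. Art3, an ADP-ribosyltransferase gene on the plus strand, runs across Cxcl10 and Cxcl11 from 92331799 to 92414628. Over all annotated GENCODE transcripts it shares 133 of 2252 exon bases with Cxcl10 and 0 with Cxcl9 and Cxcl11. Libraries were made with a stranded kit, but whether counting used the strand is not given in the sources used here.

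Promoters are shown because Cxcl9 and Cxcl10 were both higher in each knockout library. The 250 bases upstream of the RefSeq start sites (GRCm38.p6, minus strand) lie at chr5:92328080-92328329 for Cxcl9 and chr5:92348890-92349139 for Cxcl10. RefSeq promoter sequence was matched for 2 of the 3 genes, and Cxcl11 was the one not matched. Both strands were searched for the interferon-stimulated response element (GAAA, any 2 bases, GAAA), the gamma-activated site (TTCNNNGAA) and a kappaB site (GGG, any 2 bases, TTTCC). A looser kappaB site (GGG, any 3 bases, TTCC) was added after the sequences had been seen. Capitals mark the matches, read 5′ to 3′.
Cxcl9: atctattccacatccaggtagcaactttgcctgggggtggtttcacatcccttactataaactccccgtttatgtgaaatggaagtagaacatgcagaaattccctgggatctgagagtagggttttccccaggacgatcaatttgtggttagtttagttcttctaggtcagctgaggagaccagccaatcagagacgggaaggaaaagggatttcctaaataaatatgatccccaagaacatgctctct
Cxcl10: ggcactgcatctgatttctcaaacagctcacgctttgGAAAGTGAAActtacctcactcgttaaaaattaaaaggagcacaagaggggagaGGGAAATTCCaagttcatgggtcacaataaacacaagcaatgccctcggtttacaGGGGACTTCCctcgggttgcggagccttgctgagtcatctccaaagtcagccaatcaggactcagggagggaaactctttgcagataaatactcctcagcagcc
The Cxcl10 window held 1 interferon-stimulated response element, starting 213 bases before the start site, and 2 of the looser kappaB sites, starting 159 and 104 bases before it. None of the searched letters occurred in the Cxcl9 window. Of the 32851 RefSeq promoter windows of this length, 2.98% held the interferon-stimulated response element, 7.02% the gamma-activated site, 1.41% the kappaB site and 4.65% the looser kappaB site. The looser form includes every match of the stricter one. A match is a run of letters and not a measured binding site. A window without a match may still hold such elements in other letters, so the search does not show that the Cxcl9 promoter lacks them.

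Values are FPKM (fragments scaled by transcript length and by library size), which allow levels of different genes to be compared per length. How library size was normalized is not stated. The steps between the lowest values place the libraries at about 8361000 to 9930000 fragments. A single library per group leaves the spread between animals unknown, and no test between groups was made. Intervals given below are 95% exact binomial intervals from the estimated fragments, and they cover counting error only. The FPKM of Pdpn, the gene of the sort marker, lay between 158 and 293, and the summed FPKM of 9 fibroblast markers between 10461 and 11348. Il10 read 129.9 FPKM in the library with the IL-10 knockout label and 3.33 to 7.04 in the others, and Rag2 was listed at 0 outside the Rag2 knockout library, where it had 0.712, so neither gene checks its label, since a whole-gene value does not show which exons were read. The C57BL/6J control held both Xist (23.0 FPKM) and the Y-linked Ddx3y (16.9 FPKM), while the IL-10 knockout library had 44.9 and 0.0269 FPKM, so sex and genotype cannot be told apart in that pair. In the BALB/c control and the Rag2 knockout Xist had 0.0509 and 0.105 FPKM and Ddx3y 36.3 and 31.5. Gapdh, a gene every cell uses, was listed at 0.196 to 0.349 FPKM, so a value near 0 in these files need not mean a silent gene.

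Cxcl10 was the most abundant of these chemokine transcripts in every library, Cxcl9 came second and Cxcl11 last. Cxcl10 had 134 FPKM in the BALB/c control and 639 in the Rag2 knockout, against 324 and 1153 in the C57BL/6J control and the IL-10 knockout. It stood at place 3 of the 15 CXC chemokine genes of the tables in all 4 libraries, and in the IL-10 knockout it ranked 48th of all genes. Cxcl9 had 7.92 FPKM in the BALB/c control, 145 in the Rag2 knockout, 6.91 in the C57BL/6J control and 123 in the IL-10 knockout. Its level was thus low in both controls and high in both knockouts, and among CXC chemokine genes it moved from order 10 to 7 in BALB/c and from 9 to 6 in C57BL/6J. Cxcl11 had 0.0727 FPKM in the BALB/c control, 6.96 in the Rag2 knockout and 1.37 in the IL-10 knockout, and it was listed at 0 in the C57BL/6J control. These values correspond to about 1, 93, 16 and 0 fragments, so Cxcl11 was seen with more than a few fragments in the knockout libraries only. A level of 3 fragments would be 0.25 FPKM for this transcript in the C57BL/6J control. In bulk RNA, fewer producing cells and less RNA per cell cannot be told apart.

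**Figure D1:**
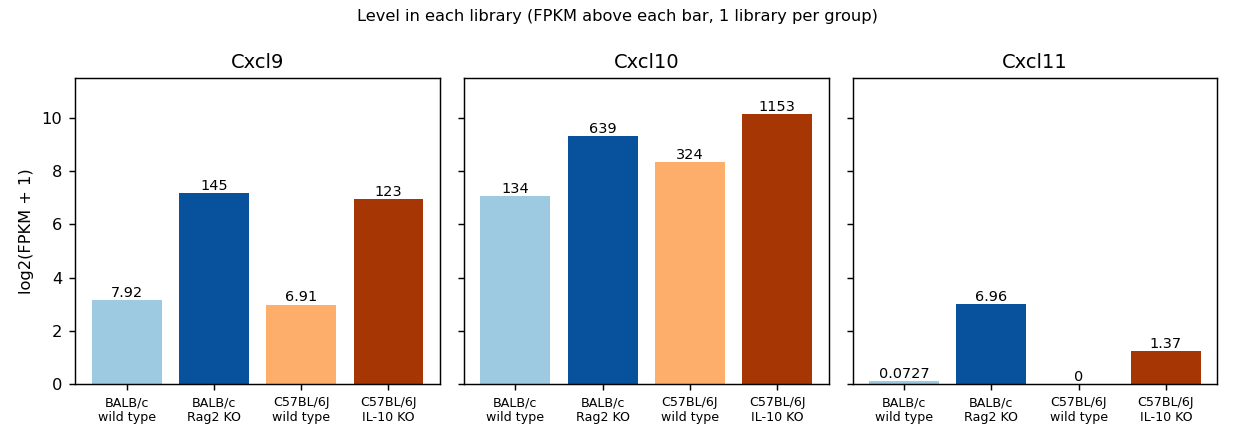
Bars show log2(FPKM + 1) of Cxcl9, Cxcl10 and Cxcl11 in each of the 4 libraries (1 library per group, no error bars), with the FPKM written above each bar. Each gene is higher in the Rag2 and IL-10 knockout (KO) libraries than in the wild type of the same strain.

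Setting the IL-10 knockout against its C57BL/6J control asks how these chemokine genes stand in colonic stromal cells of mice labelled as lacking IL-10. The 3 genes were at least 2-fold higher on the scale of log2(FPKM + 1), where 10.1% of the 12790 genes with at least 1 FPKM in either library were as much higher and 3.82% as much lower. Cxcl9 had 123 FPKM against 6.91, which is 17.9-fold (15.2 to 21.0), from about 2773 against 162 fragments. Its log2 ratio of 3.98 placed it 60th from the top. Cxcl10 had 1153 FPKM against 324, a 3.56-fold difference (3.41 to 3.73) with a log2 ratio of 1.83, at place 560. Cxcl11 had 1.37 FPKM against a listed 0 in the control, so no fold is given, and the difference on the log2(FPKM + 1) scale was 1.24. That difference fell to 0.35, below 2-fold, when 5 FPKM instead of 1 was added. The interval of Cxcl9 does not overlap that of Cxcl10, so the ratios of these neighbouring genes differed beyond counting error.

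Setting the Rag2 knockout against its BALB/c control asks the same of mice labelled as lacking the gene that T and B cells need to mature. Again the 3 genes were at least 2-fold higher, where 4.42% of 12336 genes were as much higher and 2.03% as much lower. Cxcl9 had 145 FPKM against 7.92, an 18.4-fold difference (16.0 to 21.2) with a log2 ratio of 4.04, at place 22 from the top. Cxcl10 had 639 FPKM against 134, a 4.76-fold difference (4.47 to 5.07) with a log2 ratio of 2.24, at place 113. Cxcl11 had 6.96 FPKM against 0.0727, or about 93 fragments against 1, a ratio of 95.7 with a counting interval of 16.8 to 3820. Its log2 ratio with 1 FPKM added was 2.89, at place 57. That value depended on the amount added, with 5.35 for 0.1 FPKM and 1.24 for 5 FPKM. With 0.1 FPKM added Cxcl11 lay above Cxcl9 (4.18) and Cxcl10 (2.25), and with 5 FPKM below both (3.54 and 2.21). The place of Cxcl11 in the order of the 3 genes is therefore not settled in this comparison. Cxcl9 stood further from wild type than Cxcl10 by intervals that do not overlap.

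**Figure D2:**
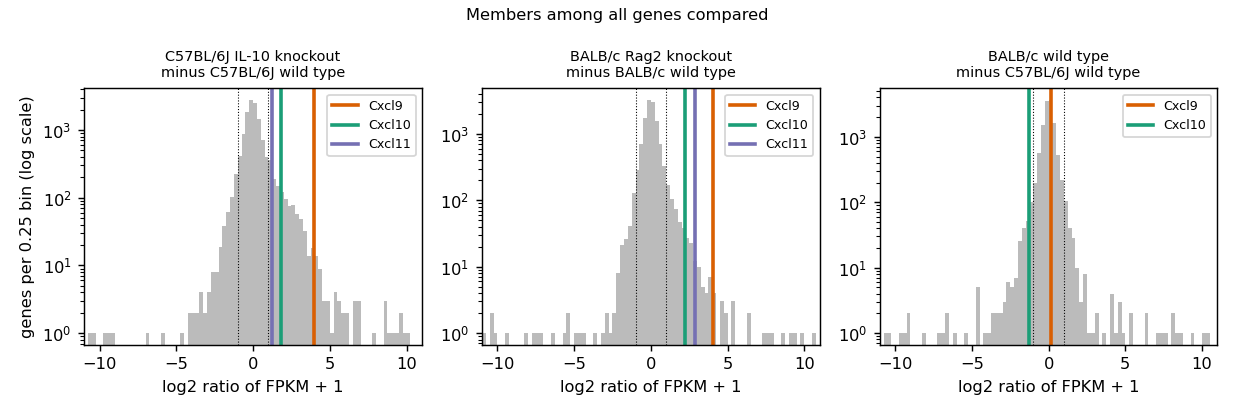
Grey histograms show the log2 ratio of FPKM + 1 for all genes compared in each of the 3 comparisons (gene number on a log axis), coloured lines the chemokine genes and dotted lines a 2-fold difference. In both knockout comparisons the lines lie to the right of the 2-fold mark. On this scale Cxcl9 is furthest out, at 3.98 and 4.04, but with 0.1 FPKM added Cxcl11 passes it in the Rag2 comparison (5.35 against 4.18). Between the wild types only Cxcl10 lies outside the 2-fold mark, at -1.26.

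Between the wild type libraries, Cxcl10 differed and Cxcl9 did not differ beyond counting error. Cxcl10 had 134 FPKM in BALB/c against 324 in C57BL/6J, a ratio of 0.415 (0.387 to 0.445) and a log2 ratio of -1.26. Here 2.17% of 12290 genes were at least 2-fold lower in BALB/c and 1.81% at least 2-fold higher. Cxcl9 had 7.92 against 6.91 FPKM, a ratio of 1.15 with an interval of 0.925 to 1.41 that holds equality. Cxcl11 was below 1 FPKM in both and was not compared. Strain, sex and individual animals cannot be told apart in this pair of libraries.

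The balance between the chemokine transcripts differed from library to library. Cxcl10 exceeded Cxcl9 17.0-fold per length in the BALB/c control and 46.8-fold in the C57BL/6J control. In the Rag2 knockout the ratio was 4.40 and in the IL-10 knockout 9.35, the lower value of each strain. Cxcl9 made up 5.57% of the summed FPKM of these genes in the BALB/c control, 18.4% in the Rag2 knockout, 2.09% in the C57BL/6J control and 9.66% in the IL-10 knockout. The knockout libraries, set side by side, held like amounts of Cxcl9 (145 FPKM in Rag2 and 123 in IL-10, a ratio of 1.18 with an interval of 1.12 to 1.24). Cxcl10 was 1.80 times as high in the IL-10 knockout (1.74 to 1.87), and Cxcl11 was 5.10 times as high in the Rag2 knockout (2.94 to 9.17). Cxcl11 therefore ran against Cxcl10 between these libraries, and strain, genotype, sex and the Cxcl11 alleles cannot be told apart there. Within the Rag2 knockout Cxcl9 exceeded Cxcl11 20.9-fold, and within the IL-10 knockout 90.3-fold.

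The flanking genes of the cluster moved less. Sdad1, on the Cxcl9 side, had 3.35 FPKM in the BALB/c control, 4.97 in the Rag2 knockout, 3.85 in the C57BL/6J control and 3.74 in the IL-10 knockout. Nup54, a nuclear pore gene beyond Cxcl11, had 13.7, 10.5, 11.4 and 11.2 FPKM in the same order. Naaa and Scarb2, the next genes outward, had log2 ratios of 0.07 and 0.33 in the IL-10 comparison and 0.39 and 0.50 in the Rag2 comparison. Art3, which overlaps Cxcl10 on the other strand, had 13.5, 29.7, 14.0 and 19.7 FPKM, a log2 ratio of 1.09 in the Rag2 and 0.46 in the IL-10 comparison. Whether fragments of Cxcl10 were counted for Art3 was not tested.

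**Figure D3:**
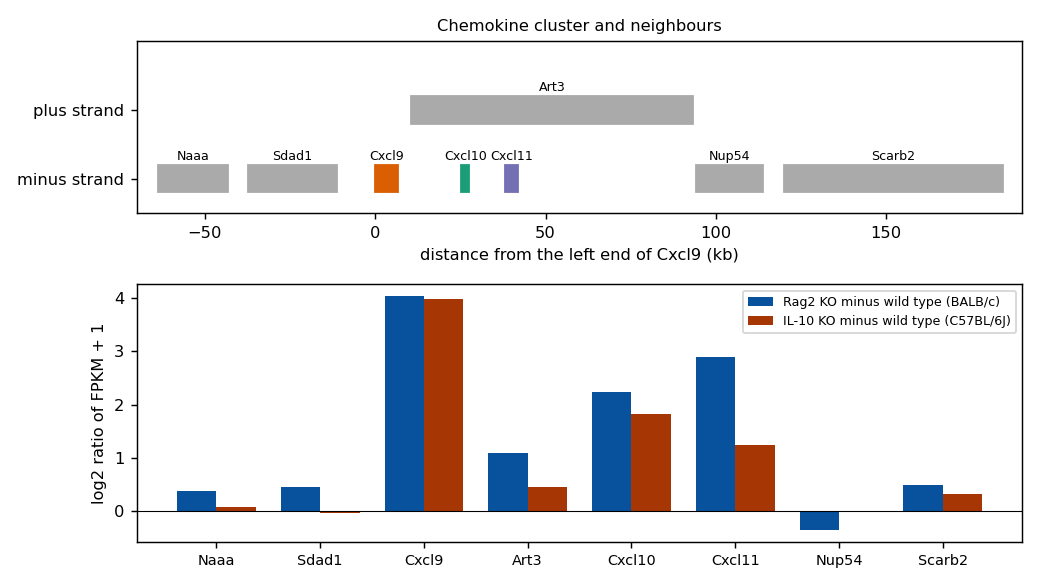
The upper panel maps the chemokine genes and their neighbours by strand, in kb from the left end of Cxcl9, and the lower panel gives the log2 ratio of FPKM + 1 of each gene in the Rag2 (blue) and IL-10 (brown) comparisons. Cxcl9, Cxcl10 and Cxcl11 stand above 1 in both, Art3 reaches 1.09 in the Rag2 comparison, and the other 4 genes lie between -0.35 and 0.50.

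Interferon-gamma itself was detected at a low level and was higher in both knockouts. Ifng, its gene, is made by T, natural killer and innate lymphoid cells rather than fibroblasts. It had 0.301 FPKM in the BALB/c control, 3.61 in the Rag2 knockout, 0.114 in the C57BL/6J control and 11.7 in the IL-10 knockout, or about 3, 35, 1 and 98 fragments. Among the 10 genes of the interferon-gamma ligand, receptor and signalling list, 5 were at least 2-fold higher and 0 lower in the IL-10 comparison (median log2 ratio 0.99, against a median of -0.002 over all genes compared), and 2 and 0 in the Rag2 comparison (0.51, against -0.004). Over all genes compared, 10.1% in the IL-10 and 4.42% in the Rag2 comparison were at least 2-fold higher, and the later lists are read beside the same shares. The receptor chain gene Ifngr1 was within 2-fold in both (0.33 and 0.33), and Ifngr2 had log2 ratios of 1.02 in the IL-10 and 0.22 in the Rag2 comparison. Irf1, which binds interferon response elements, was already at 697 and 817 FPKM in the wild types and had log2 ratios of 0.14 in the IL-10 and 0.60 in the Rag2 comparison. Socs1, a feedback inhibitor of the pathway, had 1.34 and 0.83.

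Ifnb1, the interferon-beta gene, was the 1 type I interferon gene looked at. It was listed at 0 in both controls and had 0.183 and 0.212 FPKM in the Rag2 and IL-10 knockouts, about 1 fragment each. Of the 8 genes of the type I ligand, receptor and signalling list 7 could be compared, and 2 were at least 2-fold higher and 0 lower in each knockout comparison (median 0.62 for IL-10 and 0.08 for Rag2, the latter turning to -0.05 when libraries were scaled to the same sum without small RNA genes). They were Stat2 (1.24 and 1.28) and Irf7 (1.53 and 1.44). In the list of 8 NF-kappaB and TNF genes, Tnf and its target Tnfaip3 passed 2-fold in each comparison and 0 genes were lower. Tnf had 13.3 FPKM against 3.08 in the IL-10 and 14.1 against 1.85 in the Rag2 comparison.

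Genes listed as targets of interferon-gamma were higher throughout: 18 of 18 were at least 2-fold higher in each knockout comparison, with medians of 2.47 in both. The share over all genes compared was 10.1% in the IL-10 and 4.42% in the Rag2 comparison. Gbp4, a guanylate-binding protein gene, had log2 ratios of 3.19 in the IL-10 and 4.61 in the Rag2 comparison, and Gbp5 had 3.34 and 3.17. Of 16 genes typical of type I interferon, 13 were at least 2-fold higher and 0 lower in each comparison, with medians of 1.83 and 1.96. Isg15, a ubiquitin-like modifier gene, had 2.18 and 2.19, and Zbp1, a nucleic acid sensor gene, 3.75 and 3.76. Cxcl9 stood above the medians of both lists in each comparison. Cxcl10, at 1.83 and 2.24, lay below the medians of the interferon-gamma list. Beside the type I list it lay at the median in the IL-10 and above it in the Rag2 comparison. Cxcl11, with 1 FPKM added, lay below both medians in the IL-10 and above both in the Rag2 comparison. These lists were drawn up with earlier results of the same libraries known.

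**Figure D4:**
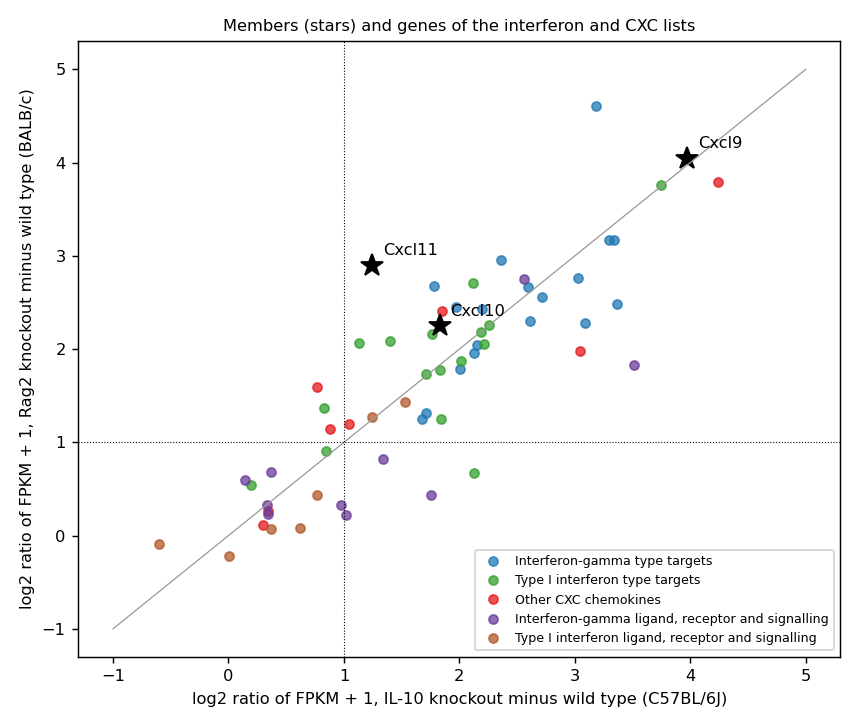
Each point is a gene of the interferon and CXC lists, placed by its log2 ratio of FPKM + 1 in the IL-10 (horizontal) and Rag2 (vertical) comparisons, and stars mark the chemokine genes. Cxcl9 lies near the grey line of equality, and Cxcl11 lies above it (1.24 and 2.89).

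Other CXC chemokines, which act on other receptors, were partly higher too. Of the 11 genes listed 8 were compared, and 4 in the IL-10 and 6 in the Rag2 comparison were at least 2-fold higher, with 0 lower. Among all genes compared, 10.1% and 4.42% were as much higher. Cxcl5, a ligand of CXCR2 on neutrophils, had 110 against 4.90 FPKM in the IL-10 and 152 against 10.04 in the Rag2 comparison (4.24 and 3.79), about as far apart as Cxcl9. Cxcl2, of the same receptor, had 1.85 and 2.41. Cxcl13, which attracts B cells, had 0.77 in the IL-10 and 1.60 in the Rag2 comparison.

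The receptor gene Cxcr3 was near the limit of detection. It had 0.358 FPKM in the BALB/c control, 0.408 in the C57BL/6J control and 1.70 in the IL-10 knockout, about 5, 5 and 22 fragments, and was listed at 0 in the Rag2 knockout. Its level was thus highest in the IL-10 knockout, and with so few fragments the other libraries are not ordered. Cxcr7 (Ackr3), the scavenging receptor for CXCL11 and CXCL12, had 90.6, 136, 134 and 162 FPKM in the BALB/c control, Rag2 knockout, the C57BL/6J control and IL-10 knockout. Darc (Ackr1), a chemokine-binding receptor of venules, had 18.8, 30.9, 18.3 and 27.8 FPKM in that order. Dpp4, whose protease product trims CXCR3 ligands, had 1.53, 1.61, 1.81 and 3.27 FPKM. Ccrl1 (Ackr4), a scavenger of CC chemokines, had 11.4, 38.1, 41.7 and 39.5 FPKM and was low in the BALB/c control alone. With 1 FPKM added, 0 of the 8 genes of this receptor and processing list passed 2-fold in the IL-10 comparison, where 10.1% of all genes compared were higher. Cxcr3 had a log2 ratio of 0.94 there, and at so low a level the added 1 FPKM shrinks the ratio. In the Rag2 comparison 2 of 7 were higher, beside 4.42% of all genes compared.

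Markers of other cells differed between the libraries beside the chemokine genes. The 6 genes found in all leukocytes summed to 116 FPKM in the BALB/c control, 170 in the Rag2 knockout, 66.3 in the C57BL/6J control and 629 in the IL-10 knockout. The 14 T and natural killer cell markers found summed to 26.7, 25.3, 10.8 and 136 FPKM, and 10 of 11 compared were at least 2-fold higher in the IL-10 comparison. In the Rag2 comparison 2 of 12 were higher, Gzma (1.74) and Ncr1 (1.048), and 2 were lower, Cd2 (-2.14) and Cd3g (-1.68, listed at 0 in the knockout), while Cd3e had 1.26 against 1.22 FPKM. For 17 macrophage, monocyte and dendritic cell markers the sums were 362, 690, 217 and 1263 FPKM, and for 8 neutrophil markers 23.7, 243, 9.51 and 3865 FPKM. The 6 B cell markers found summed to 461, 2.54, 248 and 479 FPKM, of which Igj, an antibody-joining chain gene, made up 428, 1.36, 237 and 395. Of these 6 markers 5 were at least 2-fold higher in the IL-10 comparison (median log2 ratio 2.33), and 6 were lower in the Rag2 comparison. Among all genes compared, 10.1% were at least 2-fold higher in the IL-10 comparison. In the Rag2 comparison 4.42% were as much higher and 2.03% as much lower. Cxcl9 had 145 FPKM in the Rag2 and 123 in the IL-10 knockout library. The ratio of Cxcl9 to the leukocyte sum was 0.068, 0.858, 0.104 and 0.196. Its ratio to the macrophage, monocyte and dendritic cell sum was 0.0219, 0.211, 0.0318 and 0.0977. This was the smallest range (9.62-fold) for Cxcl9 among 10 marker lists. Mesothelium (11.7-fold), leukocytes of any kind (12.6-fold) and epithelium (13.3-fold) came next. With 10 lists and 4 libraries this order is a description only. The part of any of these cell types in the chemokine levels was not tested.

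The sum of epithelial markers ordered the 4 libraries as Cxcl10 did. The 9 markers found, among them the keratin genes Krt8 and Krt19, summed to 35.3 FPKM in the BALB/c control, 144 in the Rag2 knockout, 91.2 in the C57BL/6J control and 350 in the IL-10 knockout, and 9 of 9 were at least 2-fold higher in each knockout comparison. The share over all genes compared was 10.1% in the IL-10 and 4.42% in the Rag2 comparison. Epcam, the gene of the protein sorted against, had 2.76 FPKM in the BALB/c control, 9.35 in the Rag2 knockout, 6.29 in the C57BL/6J control and 21.1 in the IL-10 knockout. Cxcl10 divided by the epithelial sum was 3.81, 4.43, 3.55 and 3.29, so it varied only 1.34-fold from library to library. The same ratio for Cxcl9 was 0.225, 1.01, 0.0758 and 0.352, a 13.3-fold range. Such ratios were taken for 10 marker lists, and the epithelial range was the smallest of them for Cxcl10. The next were 3.04-fold for mesothelium, 4.01-fold for macrophages, monocytes and dendritic cells and 4.23-fold for leukocytes of any kind. With 10 lists and 4 libraries, the closest list is a description only. The narrow range belongs to the sum and not to each marker. Tff3 had 1.60, 20.2, 11.4 and 88.6 FPKM in the same order of libraries and did not keep it, whereas Krt18 and Krt19 were among the 5 genes nearest to Cxcl10 in pattern. Between the wild types, where Cxcl10 was lower in BALB/c, 5 of the 9 epithelial markers were at least 2-fold lower there too, against 2.17% of all genes compared. Epcam (log2 ratio -0.96), Lgals4 (-0.59), Vil1 (-0.20) and Krt20 (0.10) were within 2-fold. The FPKM of marker genes does not measure how much Cxcl10 a cell type makes, and the part of epithelial cells in the Cxcl10 level was not tested. Sums for 7 blood endothelial markers were 78.6, 118, 81.2 and 107 FPKM, for 5 lymphatic markers 102, 59.0, 70.0 and 43.5, and for 4 mesothelial markers 0.980 to 4.89.

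**Figure D5:**
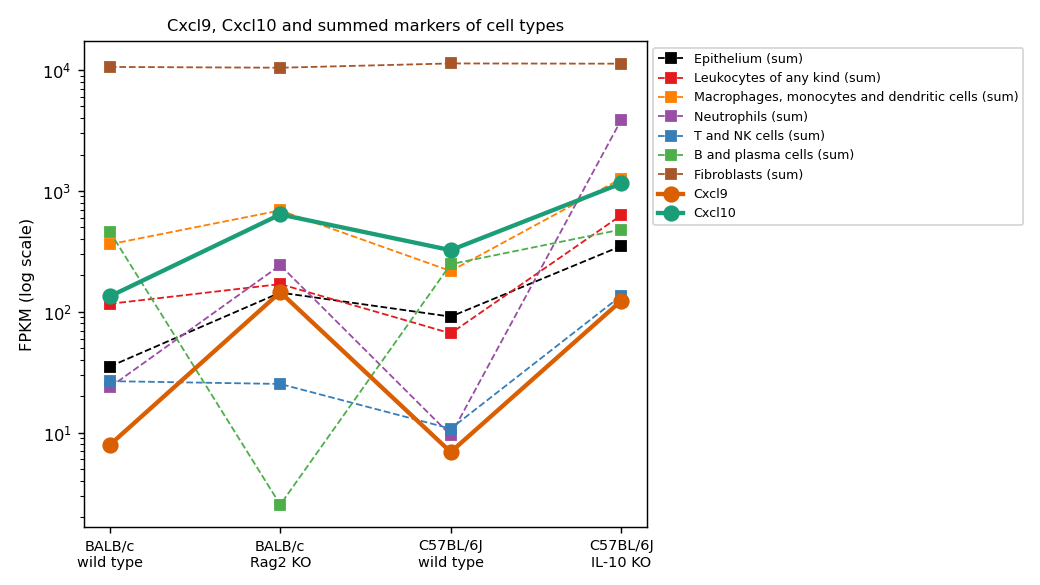
FPKM of Cxcl9 and Cxcl10 (circles) and summed FPKM of marker lists (squares) in each library, on a log axis; lines only join the points of 1 series and imply no order. Cxcl10 and the epithelial sum keep nearly the same distance in all 4 libraries (ratio 3.29 to 4.43), whereas Cxcl9 is low in both wild types and high in both knockouts. By this ratio, epithelium is the closest to Cxcl10 of 10 marker lists compared.

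Genes with the most similar pattern were ranked by the distance between profiles of log2(FPKM + 1), each centred on its mean over the 4 libraries, among 8807 genes with at least 5 FPKM somewhere. Nearest to Cxcl9 were Zbp1 (distance 0.376), Chl1 (0.380), the complement factor B gene Cfb (0.413), Cxcl5 (0.542) and Il18bp (0.549), an interleukin-18 inhibitor gene. Zbp1 had 7.14 FPKM in the BALB/c control, 109 in the Rag2 knockout, 4.86 in the C57BL/6J control and 77.6 in the IL-10 knockout. Nearest to Cxcl10 were Elf3 (0.203), Muc13 (0.219), Krt18 (0.247), Krt19 (0.295) and Serpina3g (0.369). The first 4 are genes typical of epithelium, and Krt18 and Krt19 are also in the marker list above. Elf3 had 0.752, 6.67, 2.90 and 15.4 FPKM in that order of libraries, far below Cxcl10. Nearest to Cxcl11 were Alpl (0.468), Gbp11 (0.483), Gbp9 (0.729), Ly6a (0.753) and Psmb8 (0.806), which were likewise highest in the Rag2 knockout library. Gbp11 had 0.762, 15.01, 0.320 and 2.24 FPKM. Cxcl11 had about 1 fragment in the BALB/c control and 0 in the C57BL/6J control, so its profile, and with it the choice of these genes, depends on the 1 FPKM added. Likeness over 4 libraries is a description only, since the libraries are few and many genes differ between them.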

How the data were processed

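Total RNA (miRNeasy kit) went into TruSeq stranded mRNA libraries, per the labels. The deposited values are FPKM, 1 per gene symbol and library, computed by the authors. The submitters' processing notes name mm10, Cuffdiff 2.2.1, TopHat2 2.1.1, SAMtools 0.1.18 and Bowtie2 2.2.8. Annotation, strand setting and library normalization are not stated there.

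Log2 ratios were taken of FPKM plus 1 for genes with at least 1 FPKM in either library, and differences of at least 2-fold were counted, with no test. Fragments were estimated by setting the commonest low step of transcripts of at least 1000 nt (FPKM under 0.15) to 1 fragment, with a length offset of 200 nt. Between 152 and 176 of the 340 to 390 low values per library lay within 5% of it. The depth estimate and the counting of genes were tried on simulated data made with the same length formula and offset. Such data check the code and cannot show that the formula holds for the real libraries. Small RNAs (777 rows) held 8.82% to 14.8% of the FPKM sum.

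Of 177 genes in 18 lists, older symbols included, 172 rows were found. The chemokine genes, lists and naming rule were chosen with earlier results of these data known. Apart from the chemokine genes, the text names the members of the interferon and CXCR3 lists, up to 4 members of each other list with the largest ratio among those with at least 5 FPKM, neighbours in the annotation and the 5 genes nearest in pattern. Xist, Ddx3y, Gapdh and the T cell, B cell and epithelial markers given singly were named after their values were seen. Some list members are not reported here by name. Python 3.11.15, pandas 2.3.3 and scipy 1.17.1 were used.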

Additional observations from a re-analysis of the deposited data

How the results depend on the processing

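Adding 0.1 or 5 FPKM in place of 1, median-of-ratios scaling and scaling to the same sum without small RNA genes kept the direction of all 8 chemokine ratios, and 31 of 32 values stayed on their side of 2-fold; the exception was Cxcl11 in the IL-10 comparison. With 5 FPKM added, the IL-10 comparison gave 3.43 for Cxcl9 and 0.35 for Cxcl11, with 611 genes higher and 182 lower, and the Rag2 comparison gave 3.54 for Cxcl9 and 1.24 for Cxcl11, with 278 higher and 68 lower; between the wild types 56 and 104 genes were higher and lower in BALB/c. With 0.1 FPKM added, Cxcl11 was at 3.87 in the IL-10 and 5.35 in the Rag2 comparison, 787 genes were lower there and 532 in the Rag2 comparison, and between the wild types 477 were higher and 452 lower. A filter of 5 FPKM, which tests fewer genes, left 846 higher in the IL-10, 159 lower in the Rag2 and 129 higher in the wild type comparison. Without small RNA genes in the sum, Cxcl10 was at 1.69 in the IL-10 and 2.102 in the Rag2 comparison, the median of all genes moved to -0.13 in both, and the share of higher among differing genes went from 68.5% to 57.5% in the Rag2 comparison (72.7% to 64.2% in the IL-10 comparison). Under that scaling 1 gene fewer passed 2-fold in the interferon-gamma signalling (4 of 10) and other CXC lists (3 of 8) of the IL-10 comparison and in the receptor (1 of 7) and epithelial lists (8 of 9) of the Rag2 comparison. The cause of these shifts was not tested. The median-of-ratios factors lay between 0.985 and 1.016, so that scaling could move the values only a little. No paired analysis was possible because each group has 1 library, and no library could be left out. Some libraries held 5 or fewer fragments of Cxcl11, Cxcr3, Ifng and Ifnb1, which limits their values.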
